A study of Mus musculus with 12 samples.

Results

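Atg10 and 9 further genes of the core autophagy machinery (Atg3, Atg5, Atg7, Atg12, Atg13, Atg16l1, Becn1, Ulk1 and Map1lc3b) were followed in single mouse morulae. Every probe assigned to these 10 genes was taken, which gave 16 of the 41174 probes and 10 of the 18327 gene symbols of the array. Atg10 was singled out because its probes had been seen to differ between cloned and fertilised embryos in these same arrays, so its values are described here without any test. The other 9 genes were picked by function, and their probes were tested together with all other probes. The arrays held 12 morulae, each from 1 embryo, in 3 classes of 4. Clones of the siXist class received an siRNA against Xist, the non-coding RNA that silences an X chromosome in cis. Clones of the siCont class received a control siRNA. IVF embryos came from in vitro fertilisation and were left untreated. Clones were made from Sertoli cells, the somatic support cells of the testis, and were all male. Of the IVF embryos, replicates 1 and 3 were male and replicates 2 and 4 female. Injection took place 6 to 7 h after activation, at the 1-cell stage, and all embryos were cultured in KSOM medium for 72 h. All 3 classes carry the same strain label, (C57BL/6 x DBA/2) F1. The IVF class was not injected, so clones and IVF embryos differ in the donor nucleus, the activation and the injection together.

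Autophagy encloses cytoplasm in a double membrane, the autophagosome, and delivers it to the lysosome. The Ulk1 kinase with Atg13 starts the process, and a lipid kinase complex that holds Becn1 marks the membrane. A pair of ubiquitin-like conjugation systems then builds it: Atg7 activates Atg12 and passes it to Atg10, which joins it to Atg5, while Atg7 passes LC3 (the product of Map1lc3b) to Atg3, which joins it to a membrane lipid with help from the Atg12-Atg5-Atg16l1 complex. In mouse embryos autophagy is switched on soon after fertilisation, and embryos that lack both maternal and zygotic Atg5 stop before the blastocyst. Atg10 and Atg3 are thus the carrier enzymes of the sister branches.

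The promoter windows of these carrier enzymes are shown because they are the members with a probe that separated the clones from the IVF embryos below. RefSeq windows on GRCm38.p6, from 250 bases before to 50 bases after the gene start, were matched for 7 of the 10 members. Capitals mark CACGTG, the E-box that reads alike on both strands and that factors of the TFEB family bind in many autophagy and lysosome genes. The Atg10 window lies on the minus strand at chr13:91223938-91224237 and the Atg3 window on the plus strand at chr16:45158579-45158878.
Atg10: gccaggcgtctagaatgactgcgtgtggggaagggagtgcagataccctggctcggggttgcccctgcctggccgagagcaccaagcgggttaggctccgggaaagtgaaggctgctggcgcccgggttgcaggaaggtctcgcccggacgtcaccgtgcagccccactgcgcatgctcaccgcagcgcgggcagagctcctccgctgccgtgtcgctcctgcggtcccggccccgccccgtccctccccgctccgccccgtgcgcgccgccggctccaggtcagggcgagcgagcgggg
Atg3: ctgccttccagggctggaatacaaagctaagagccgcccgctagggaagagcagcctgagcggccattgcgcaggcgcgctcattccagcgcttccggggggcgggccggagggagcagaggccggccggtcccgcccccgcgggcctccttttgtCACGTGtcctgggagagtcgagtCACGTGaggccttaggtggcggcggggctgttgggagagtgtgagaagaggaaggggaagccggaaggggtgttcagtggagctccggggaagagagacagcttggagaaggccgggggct
CACGTG was found 2 times in the Atg3 window and 0 times in the Atg10 window. It was present in 3 of the 7 member windows (Atg3, Atg5 and Atg7) and in 7.15% of all 32851 windows of this length. The windows of Atg10 and Atg3 held 33 and 23 CpG dinucleotides, at 73% and 67.3% G and C, against a median of 7 CpG over all windows with quartiles of 3 and 20. The lowest member was Atg7 with 4 CpG and the highest was Map1lc3b with 34.

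Levels are given as the log2 processed signal of the scanner software minus the 75th percentile of that array, and levels of different probes cannot be set against each other. Probes were kept if 3 or more of the 4 embryos in some class gave a signal that the scanner software marked well above background, which 24840 probes and all 16 member probes did. Between 50.7% (siCont clone 3) and 61.4% (siXist clone 3) of probes were well above background on an array. Correlations between arrays of a class were 0.832 to 0.883 in siXist clones, 0.840 to 0.870 in siCont clones and 0.874 to 0.935 in IVF embryos. Xist, the target of the siRNA, averaged 1.93 ± 0.48 in siXist clones and 4.97 ± 0.48 in siCont clones (SD, n = 4 each), a difference of -3.04 (exact two-sided permutation p = 0.0286, the smallest that 4 against 4 allows). Each class was hybridised on a slide of its own and scanned on its own, so slide, scan and class cannot be told apart. Precision is limited by the 4 arrays in each class.

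Atg10 was higher in all 8 clones than in both male IVF embryos on each of its probes. On probe A_51_P378858 the levels were 1.05, -0.69, 0.70 and 2.73 in siXist clones 1 to 4. They were 1.31, 0.75, 4.62 and 3.16 in siCont clones 1 to 4. In the IVF embryos they were -7.89 and -6.83 in the males, neither well above background, and 0.32 and 0.68 in the females, both well above it. All 8 clones were well above background. The male IVF embryos therefore stood far below every other array, while the female IVF embryos lay within the range of the siXist clones and just under that of the siCont clones. The male IVF embryos were then raised to the lowest detectable level of their own arrays. Set against these, the siXist clones were 140-fold higher and the siCont clones 398-fold higher at this scaling. Set against the female IVF embryos, the difference in mean level was 0.45 for siXist clones and 1.96 for siCont clones. Over the whole IVF class the difference was 4.38 for siXist clones and 5.89 for siCont clones. In bulk RNA of an embryo, fewer cells with a transcript and less transcript per cell cannot be told apart.

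The other probe, A_52_P332666, was well above background on all 12 arrays and put both sexes of the IVF class below the clones. Its levels were 0.11, -0.81, 0.56 and -0.28 in siXist clones, with a mean of -0.11 ± 0.59 (SD, n = 4). They were -0.52, -0.39, 3.67 and 0.99 in siCont clones, with a mean of 0.94 ± 1.94. In IVF embryos they were -2.28, -2.95, -3.54 and -1.27, with a mean of -2.51 ± 0.97. The lowest of the 8 clones (-0.81) thus lay above the highest of the 4 IVF embryos (-1.27). The differences from IVF embryos were 2.41 for siXist clones (5.30-fold) and 3.45 for siCont clones (10.9-fold). Without siCont clone 3 the value for siCont clones was 2.54. Both clone classes were set against the same IVF embryos, so these are not independent comparisons. Over all tested probes, every clone of the class lay above every IVF embryo at 3.41% for siXist clones alone and at 5.08% for siCont clones alone. The share for all 8 clones together was not computed.

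**Figure D1:**
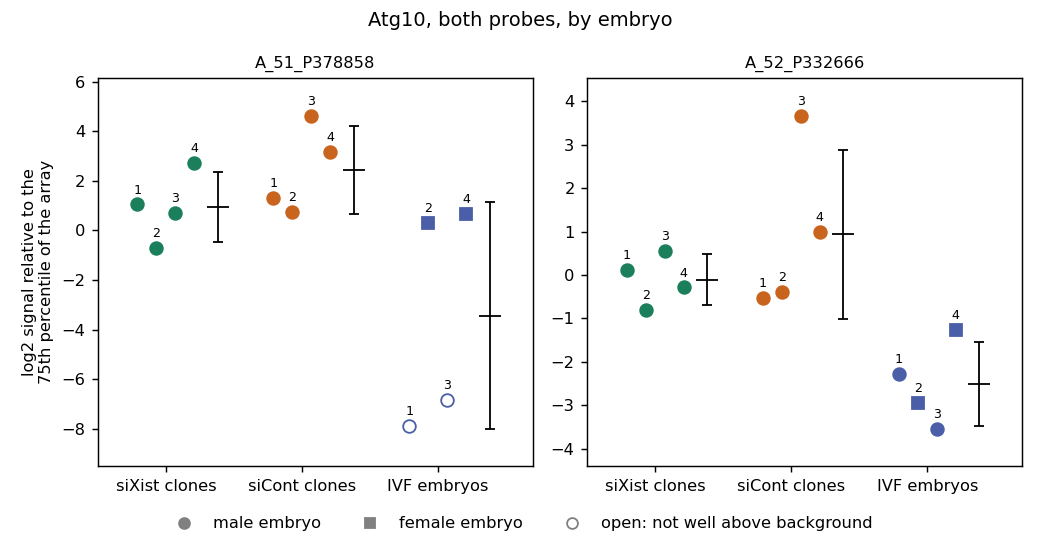
Levels of both Atg10 probes in each embryo, on the log2 scale relative to the 75th percentile of the array, with the class mean and SD beside the points. On the left probe (A_51_P378858) the 2 male IVF embryos lie at -7.89 and -6.83 (open, not well above background) and the 2 female ones at 0.32 and 0.68; on the right probe (A_52_P332666) all 8 clones lie above all 4 IVF embryos.

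The probes thus differed in how the female IVF embryos compared with the clones. Across the 12 arrays the levels of the 2 probes had a Pearson correlation of 0.76, and across the 8 clones alone of 0.81, given as a description because arrays share class and slide. Both probes had their highest level in siCont clone 3, the array with the lowest share of detected probes. Between the clone classes the ranges overlapped on both probes. The siXist minus siCont difference was -1.51 on A_51_P378858 and -1.04 on A_52_P332666. Without siCont clone 3 these became -0.79 and -0.13, and in the authors' value table they were -0.37 and 0.09. The value on A_51_P378858 was thus negative under all 23 alternatives, and that on A_52_P332666 turned in the authors' table. Many of these alternatives could not change either value, such as the filters, leaving out an IVF embryo, or sex as a term where all clones are male.

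None of the other 9 members was called higher in the clones, where Atg10 was high. Of the 14 probes of the other 9 members, 0 were called higher in either clone class than in IVF embryos, against 0.234% of all 24838 tested probes for siXist clones and 0.177% for siCont clones. A probe was called at a Benjamini-Hochberg adjusted p of 0.05 over all tested probes in limma. A single member probe, A_51_P143855 of Atg3, was called lower, in both clone classes, where 0.282% and 0.229% of all probes were called lower for siXist and siCont clones. It was kept for testing through the IVF class alone, being well above background in 1 siXist clone, 0 siCont clones and 4 IVF embryos, so a difference was built into its being tested and the call is given as a description. At an unadjusted limma p under 0.05 there was still 1 of the 14 in each comparison, the same Atg3 probe, against 14.6% and 14.2% of all tested probes. Over all tested probes 58 were called higher and 70 lower for siXist clones (72 and 56 under quantile normalisation, 18 and 35 in the authors' value table), and 44 higher and 57 lower for siCont clones (12 and 160 in that table). The median difference of the 14 probes was -0.33 for siXist clones, beside -0.21 over all tested probes. For siCont clones it was 0.21, beside -0.06 over all tested probes. All 14 probes had a negative difference for siXist clones, but 5 of them turned positive under quantile normalisation and 4 under normexp, with medians of -0.05 and -0.11. The classes did not overlap for 2 of the 14 probes in siXist clones (Atg3 and Atg7, both lower) and for 1 in siCont clones (Atg3, lower), beside 9.03% and 4.7% of all tested probes that lay wholly lower in that way.

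**Figure D2:**
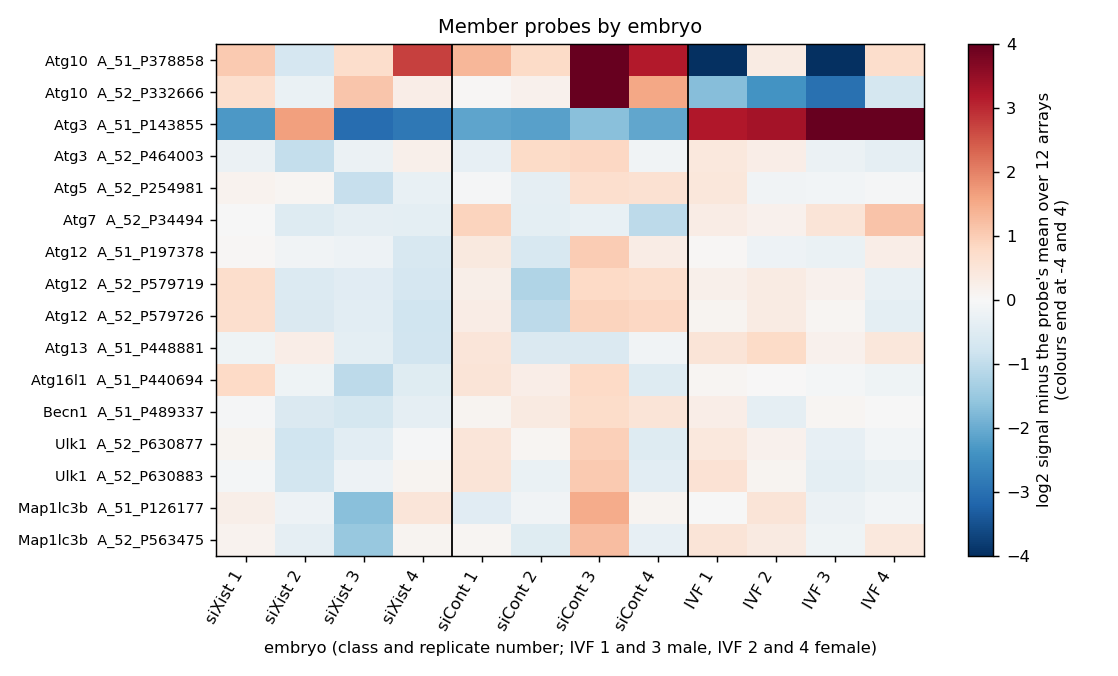
Level of each of the 16 member probes (down) in each embryo (across, siXist clones, siCont clones, then IVF embryos), as the log2 difference from the mean of that probe over the 12 arrays, with colours ending at -4 and 4. A_52_P332666 of Atg10 is lowest in the IVF class, and A_51_P378858 of Atg10 is lowest in the male IVF embryos alone. A_51_P143855 of Atg3 is highest in the IVF class. The other 13 rows vary less, with siXist clone 3 lowest and siCont clone 3 highest for Map1lc3b.

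Between the clone classes 0 of the 14 probes were called, where 0.0242% of all tested probes were called (6 of 24838). At an unadjusted limma p under 0.05 there was 1 member probe, that of Becn1, and 14.6% of all tested probes. The median difference of the 14 probes, siXist minus siCont, was -0.49, beside -0.17 over all tested probes. Of these probes 13 had a negative difference at this scaling, and all 14 had a positive one in the authors' value table, whose scaling moved the median of all probes to 0.96. Set against the median of all probes under the same scaling, the member median lay at -0.32 in both. These had to be close, since the authors' table moves all probes of an array alike. The same value was -0.15 under quantile normalisation and -0.06 with normexp and quantile normalisation.

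The starting kinase gave close values in all classes. Ulk1, whose product phosphorylates other autophagy proteins, averaged 7.15 ± 0.42 in siXist clones, 7.69 ± 0.63 in siCont clones and 7.48 ± 0.33 in IVF embryos on probe A_52_P630877 (SD, n = 4 each). Its differences from IVF embryos were -0.32 (95% interval -1.14 to 0.50) for siXist clones and 0.22 (-0.60 to 1.03) for siCont clones, neither called. The other Ulk1 probe, A_52_P630883, gave -0.22 and 0.22. Atg13, the adaptor of the kinase, had levels of -0.36, 0.08, -0.57 and -0.93 in siXist clones. It had 0.31, -0.77, -0.76 and -0.33 in siCont clones, against 0.32, 0.58, -0.02 and 0.28 in IVF embryos. The clones lay mostly below the IVF embryos, but 1 embryo of each clone class lay within the IVF range. The difference was -0.74 for siXist clones (95% interval -1.48 to 0.00356, limma adjusted p = 0.343) and -0.68 for siCont clones (-1.42 to 0.07, adjusted p = 0.395), and neither was called.

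Becn1, the Beclin 1 subunit of the lipid kinase complex, was the member with the smallest p between the clone classes. Its levels were 0.92, 0.41, 0.27 and 0.64 in siXist clones, against 1.10, 1.34, 1.72 and 1.49 in siCont clones. In IVF embryos they were 1.23, 0.63, 1.06 and 0.97. Every siXist clone lay below every siCont clone, an arrangement found at 5.83% of tested probes, and IVF embryos overlapped both. The siXist minus siCont difference was -0.85 ± 0.28 (SE; 95% interval -1.46 to -0.25), which did not pass the threshold (limma adjusted p = 0.251). In the authors' value table this difference was 0.28, so its direction depended on the scaling. Against IVF embryos the difference was -0.41 for siXist clones and 0.44 for siCont clones, neither called.

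**Figure D3:**
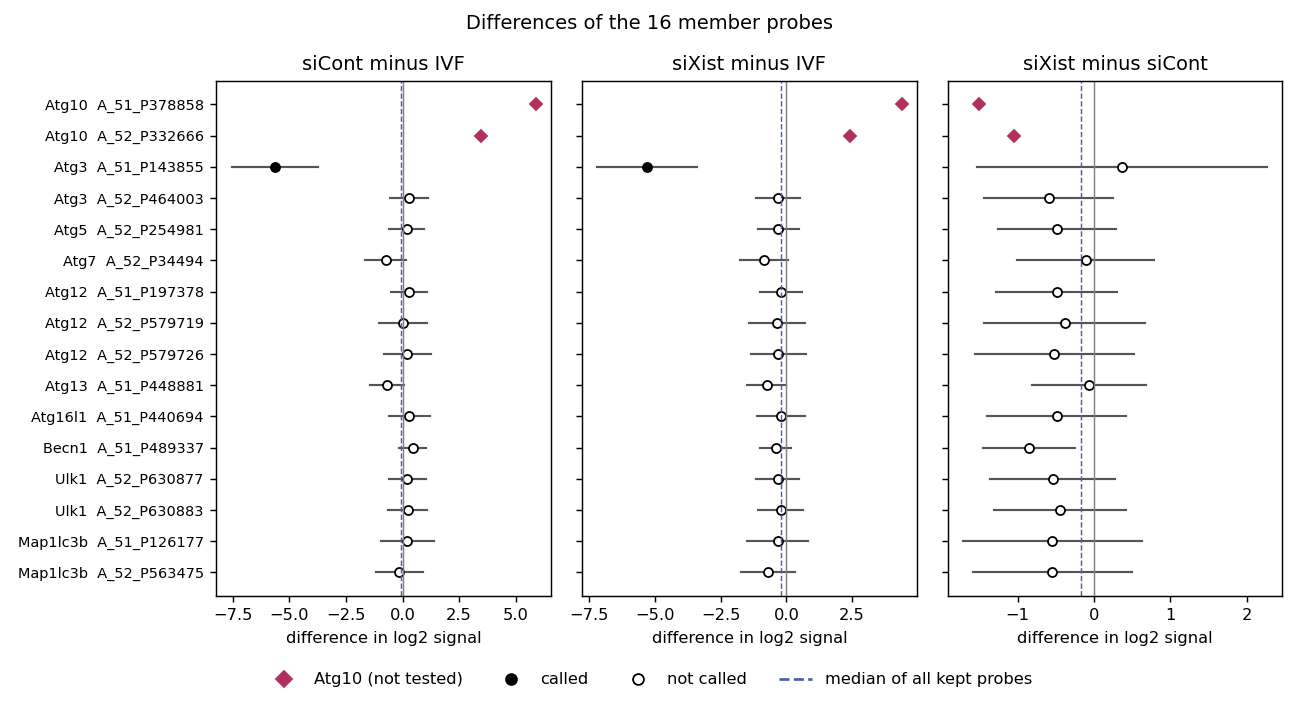
Difference in log2 level of each member probe for siCont minus IVF, siXist minus IVF and siXist minus siCont (panels left to right), with 95% limma intervals, filled where called and with the median of all kept probes dashed. Atg10 is drawn as diamonds without intervals because it was not tested; the 1 called probe is A_51_P143855 of Atg3, lower than in IVF embryos in both clone classes, where its plotted size rests on signals below detection in 7 of the 8 clones.

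Among the conjugation genes around Atg10, its activating and target partners showed no called difference. Atg7, the enzyme that activates both Atg12 and LC3, had levels of 1.94, 1.45, 1.60 and 1.59 in siXist clones. It had 2.86, 1.58, 1.67 and 0.91 in siCont clones, against 2.26, 2.15, 2.48 and 3.10 in IVF embryos. All siXist clones lay below all IVF embryos, and siCont clones spanned both. The difference was -0.85 for siXist clones (95% interval -1.75 to 0.05, limma adjusted p = 0.366) and -0.74 for siCont clones (-1.64 to 0.16, adjusted p = 0.442). Atg5, the protein to which Atg10 joins Atg12, averaged 2.25 ± 0.49 in siXist clones, 2.73 ± 0.50 in siCont clones and 2.55 ± 0.27 in IVF embryos (SD, n = 4 each). Its differences from IVF embryos were -0.30 (-1.07 to 0.47) and 0.18 (-0.60 to 0.95).

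Atg12, the ubiquitin-like protein that Atg10 carries, had 3 probes. On the brightest, A_51_P197378, it averaged 4.87 ± 0.29 in siXist clones, 5.35 ± 0.68 in siCont clones and 5.06 ± 0.25 in IVF embryos. The differences from IVF embryos were -0.19 (95% interval -0.98 to 0.60) for siXist clones and 0.29 (-0.50 to 1.09) for siCont clones. The probes A_52_P579719 and A_52_P579726 gave -0.35 and -0.32 for siXist clones and 0.03 and 0.20 for siCont clones, none called. These last probes followed each other closely over the arrays, with a correlation of 0.99, while each had 0.73 or 0.75 with A_51_P197378. Atg16l1, the scaffold that places the Atg12-Atg5 conjugate at the membrane, averaged 3.97 ± 0.77, 4.46 ± 0.56 and 4.16 ± 0.11 in siXist clones, siCont clones and IVF embryos, with differences from IVF embryos of -0.19 (-1.10 to 0.72) and 0.30 (-0.61 to 1.21). The genes of these conjugation steps (Atg7, Atg5, Atg12 and Atg16l1) thus had differences from IVF embryos between -0.85 and -0.19 for siXist clones and between -0.74 and 0.30 for siCont clones. In the authors' value table these were -0.81 to -0.15 and -1.84 to -0.80.

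Atg3, the carrier enzyme of the LC3 branch, gave differing values on its 2 probes. On probe A_51_P143855 the levels were -8.15, -4.22, -8.91 and -8.73 in siXist clones, where clone 2 alone was well above background. They were -7.97, -8.03, -7.54 and -7.96 in siCont clones, with 0 of the 4 well above background. In IVF embryos they were -2.68, -2.54, -1.86 and -1.78, all 4 well above background. On this probe the signal fell below detection in 7 of the 8 clones and was present in every IVF embryo of either sex. With the siCont clones raised to the lowest detectable level of their own arrays, it was 13.5-fold lower in them than in IVF embryos. The limma adjusted p was 0.0249 for siCont clones and 0.0249 for siXist clones. As the probe was kept through the IVF class alone, these p-values are conditional on the difference itself. The size of the difference depended on how dim signals were treated, since 7 of the 8 clones were below detection. As fitted it was -5.29 for siXist clones and -5.66 for siCont clones, with a floor under dim values -3.04 and -3.38, and with normexp and quantile normalisation -1.75 and -1.89. Between the clone classes nearly all values were below detection.

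The brighter Atg3 probe, A_52_P464003, showed no such drop. Its levels were 3.37, 2.63, 3.37 and 3.79 in siXist clones and 3.27, 4.37, 4.44 and 3.46 in siCont clones. In IVF embryos they were 4.02, 3.87, 3.36 and 3.23, and both clone classes overlapped them. The difference from IVF embryos was -0.33 (95% interval -1.17 to 0.52, limma adjusted p = 0.709) for siXist clones and 0.27 (-0.58 to 1.11, adjusted p = 0.790) for siCont clones. The correlation of the 2 Atg3 probes over the 12 arrays was -0.19, where the paired probes of Ulk1 and Map1lc3b had 0.95 and 0.87. Where on the Atg3 transcript each probe lies was not analysed here. The call on A_51_P143855 was lost on leaving out any of 6 single arrays for siCont clones (IVF 1, 3 or 4, siCont 2, 3 or 4; adjusted p up to 0.0785) and any of 7 for siXist clones (IVF 1 to 4, siXist 1, 3 or 4; up to 0.0718). With the male embryos alone it was lost too, at fitted differences of -5.24 for siXist clones (adjusted p = 0.186) and -5.60 for siCont clones (adjusted p = 0.168), close to those with all embryos. Its direction held in all of these. It could not have turned, since the classes did not overlap on this probe and it was kept through the IVF class alone.

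**Figure D4:**
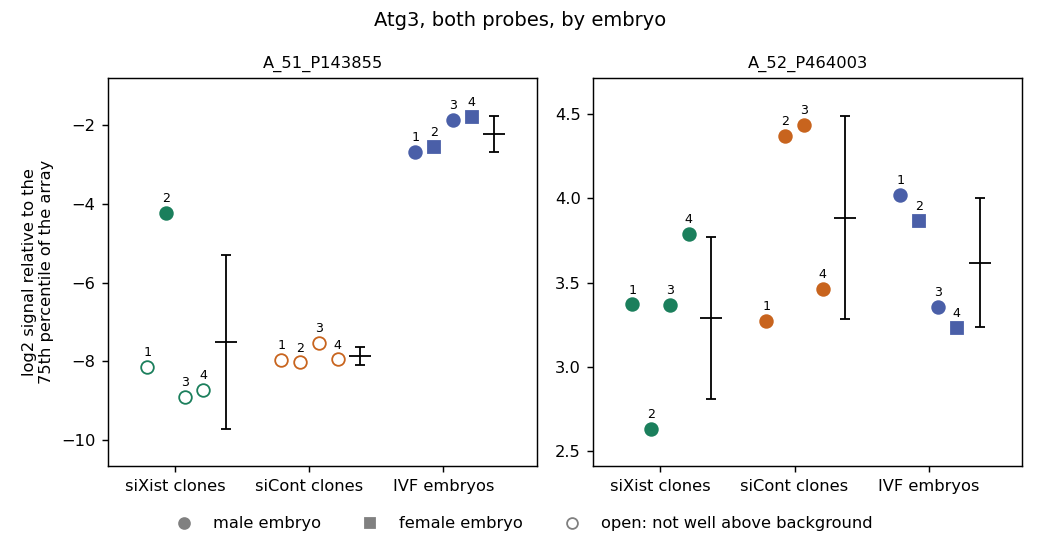
Levels of both Atg3 probes in each embryo, on the log2 scale relative to the 75th percentile of the array, with the class mean and SD beside the points (open points are not well above background). On A_51_P143855 the 4 IVF embryos lie between -2.68 and -1.78 and all clones but siXist clone 2 are undetected; on A_52_P464003 all 12 embryos lie between 2.63 and 4.44.

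Map1lc3b, which encodes the LC3 protein that coats the autophagosome, had levels of 6.65, 6.20, 4.76 and 6.90 in siXist clones on probe A_51_P126177. It had 5.98, 6.28, 7.90 and 6.53 in siCont clones, against 6.40, 6.94, 6.19 and 6.31 in IVF embryos. The IVF embryos were tightly grouped, siXist clone 3 was the lowest and siCont clone 3 the highest. The differences from IVF embryos were -0.33 (95% interval -1.50 to 0.84) and 0.21 (-0.96 to 1.38) for siXist and siCont clones. Probe A_52_P563475 gave -0.69 (-1.74 to 0.35) and -0.15 (-1.19 to 0.89), and none of these was called.

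The levels of the 9 other members also differed from embryo to embryo. Taking the brightest probe of each and its deviation from its own mean over the 12 arrays, the median deviation per embryo was 0.05, -0.22, -0.43 and -0.35 in siXist clones 1 to 4. It was 0.39, -0.14, 0.78 and -0.13 in siCont clones and 0.29, 0.17, -0.10 and -0.03 in IVF embryos. In siXist clone 3, 0 of the 9 genes lay above their own mean, and in siCont clone 3, 7 of the 9 did. The counts in the other embryos ran from 2 to 8 of 9, so each of these had genes on both sides of the mean. SiXist clone 3 and siCont clone 3 were also the arrays with the highest and the lowest share of detected probes (61.4% and 50.7%), and with 75th percentiles of the processed signal of 1133 and 507, also the highest and lowest. The part of this scaling in the spread was not tested.

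Beyond the members, 58 genes of the wider pathway were listed by role, of which 55 had a probe and 54 had a kept one. Of these 54, 0 were called in limma for siXist against IVF, siCont against IVF or siXist against siCont. Taking the brightest kept probe of every gene, 0.557%, 0.446% and 0.0263% of 19044 features were called in the same comparisons. At an unadjusted p under 0.05 there were 6, 6 and 5 of the 54, while the shares over all features were 15.1%, 14.8% and 15.2%. The median difference of the 54 was -0.30 for siXist minus IVF, -0.05 for siCont minus IVF and -0.36 for siXist minus siCont, where all features had -0.23, -0.04 and -0.21. By role, the siCont minus IVF medians ran from -0.21 for 8 genes of the conjugation steps (the Atg4 proteases and LC3 relatives) to 0.16 for 5 genes of fusion with the lysosome. The siXist minus IVF medians ran from -0.58 for fusion to 0.03 for 9 regulators such as Mtor and Tfeb.

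The genes with the smallest p in these lists are given as values that did not pass the threshold. Fundc1, an X-linked mitophagy receptor, had levels of 1.81, 1.52, 0.34 and 0.44 in siXist clones and 1.31, 2.40, 2.32 and 3.44 in siCont clones. It had 2.55, 4.63, 2.90 and 3.69 in IVF embryos, above all siXist clones and higher in the females than in the males. Such a separation, with siXist clones wholly lower, was found at 9.03% of all tested probes. The siXist minus IVF difference was -2.41 (limma adjusted p = 0.108), and with male embryos alone it was -1.70 (adjusted p = 0.590). Bnip3, another mitophagy receptor, had levels of 7.83, 7.42, 7.22 and 7.96 in siXist clones and 8.07, 7.80, 8.59 and 7.47 in siCont clones, against 7.07, 6.93, 6.77 and 6.94 in IVF embryos. All 8 clones lay above all 4 IVF embryos. Over all tested probes, siXist clones alone lay wholly above IVF embryos at 3.41% and siCont clones alone at 5.08%. The share for all 8 clones together was not computed. The Bnip3 difference was 0.68 for siXist clones (limma adjusted p = 0.341) and 1.05 for siCont clones (adjusted p = 0.174). With normexp and quantile normalisation both were called, at 1.09 (adjusted p = 0.0229) and 1.10 (adjusted p = 0.0247), while the authors' table gave -0.04 for siCont clones.

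Against IVF embryos, the siXist clones had further differences of 0.76 for Ctsd (cathepsin D, a lysosomal protease), 1.18 for Atg4c, -0.98 for Nbr1 (a cargo receptor) and -0.99 for X-linked Wdr45, with adjusted p from 0.242 to 0.543. For siCont clones they were 1.53 for Tfeb, the master regulator of lysosome genes, 0.60 for Atg2b, -1.54 for Atg2a and -1.55 for X-linked Atg4a, with adjusted p from 0.268 to 0.391. Tfeb was not well above background in any siXist clone and was so in 3 of 4 siCont clones and 3 of 4 IVF embryos. With the siXist clones raised to the lowest detectable level of their own arrays, it was 4.49-fold lower in siXist than in siCont clones. This is not a lower bound, since not every siCont clone was well above background. The difference did not pass the threshold (limma adjusted p = 0.236). Its size changed with siCont clone 4 and with the processing: the fitted difference was -2.32, without siCont clone 4 it was -1.56, in the authors' value table -1.18, with a floor under dim values -1.28 and with normexp -0.60. The other siXist minus siCont differences named were 2.86 for Tecpr1, 1.23 for Atg2a, -0.96 for Ctsl and -2.16 for Atg4d, with adjusted p from 0.270 to 0.350. Tecpr1, which tethers autophagosomes to lysosomes, was low in siCont clones 3 and 4 (-5.74 and -4.46), where the other 10 embryos lay between -1.35 and 0.59.

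**Figure D5:**
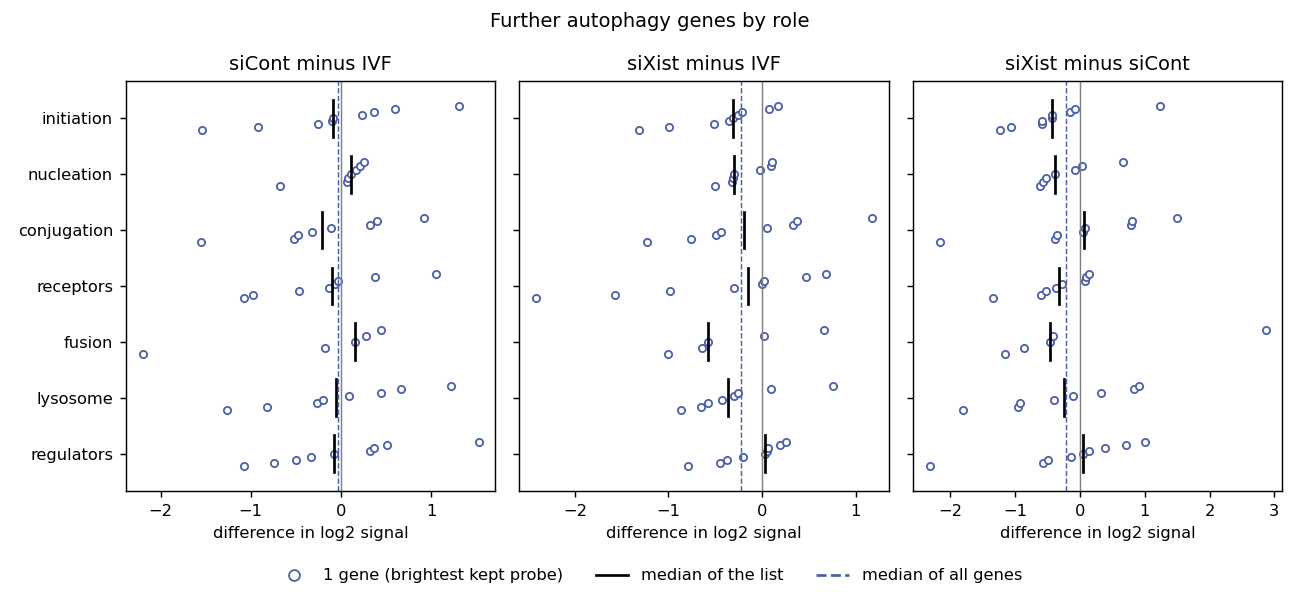
Difference in log2 level of 54 further autophagy genes by role (rows) for siCont minus IVF, siXist minus IVF and siXist minus siCont (panels left to right), 1 point per gene, with the median of each list as a bar and that of all genes dashed. No point passed the threshold, and the medians of the lists lie between -0.58 and 0.16.

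The genes next to Atg10 on chromosome 13 were examined as well, taking the nearest 3 on either side with a kept probe, and none was called. On one side were Rps23, Tmem167 and Xrcc4, with siXist minus IVF differences of -0.30, -0.20 and -0.21 and siCont minus IVF differences of 0.06, 0.04 and -0.55. On the other side was Ssbp2, which encodes a single-stranded DNA binding protein. Its levels were -0.72, -1.15, 1.51 and 0.58 in siXist clones and -2.23, 1.08, 0.95 and 0.48 in siCont clones, against -2.15, -3.84, -1.34 and -1.40 in IVF embryos. All siXist clones and 3 of the 4 siCont clones lay above all IVF embryos. At 3.41% of all tested probes the siXist clones lay wholly above the IVF embryos. The differences were 2.24 (limma adjusted p = 0.272) and 2.25 (adjusted p = 0.280) for siXist and siCont clones. Acot12, next in order, was well above background on 8 of the 12 arrays, with differences of 2.00 (adjusted p = 0.746) and 3.51 (adjusted p = 0.574). Zcchc9, the last of the 3, had -0.54 and -0.09.

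The genes whose levels most resembled those of the brightest Atg10 probe over the 12 arrays were Xist (Pearson correlation 0.89), Matn2 (0.89), Tceal8 (0.88), Ccm2l (0.88) and Olfr850 (0.87). They are given as a description, since the arrays share class, slide and sex. Xist was -4.92 and -7.04 in the male IVF embryos and 5.17 and 5.24 in the female ones, so it shared the low male IVF arrays with Atg10. Within the 8 clones the correlations were 0.51 for Xist, 0.78 for Matn2 (the matrix protein matrilin 2), 0.02 for X-linked Tceal8, 0.43 for Ccm2l and 0.62 for Olfr850 (an olfactory receptor). With the other Atg10 probe they were 0.53, 0.54, 0.56, 0.65 and 0.78 over all arrays. Olfr850 was well above background on 3 of the 12 arrays, all of siCont clones, and was kept through that class alone. Under other processing the lowest correlations with the brightest Atg10 probe were 0.79 for Xist, 0.73 for Matn2 and 0.77 for Tceal8. They were 0.69 for Ccm2l and 0.46 for Olfr850.

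Markers of the embryo and of cells that could accompany it were measured on the same arrays. Of 10 morula markers 9 had a kept probe, and 8 were well above background on all siXist arrays, 7 on all siCont arrays and 9 on all IVF arrays. The summed linear level relative to the 75th percentile was 196 to 311 in siXist clones, 220 to 308 in siCont clones and 214 to 319 in IVF embryos. Such a sum rests mostly on the brightest probes, and sums of different lists cannot be set against each other. Sox2 was well above background in 1 siXist clone (clone 2, at -2.35), in 1 siCont clone (clone 4, at 0.74) and in all 4 IVF embryos. Cdx2, a trophectoderm factor, was 1.34 to 3.83 in siXist clones, 3.44, -2.93, -7.87 and 3.18 in siCont clones 1 to 4 and 4.37 to 5.13 in IVF embryos. SiCont clone 3, the highest array for Atg10, was thus the lowest for Cdx2 and not well above background. The summed level of 7 kept Sertoli markers of 10 was 1.81 to 4.62, 1.85 to 6.00 and 3.28 to 4.82 in siXist clones, siCont clones and IVF embryos. Amh was not well above background on any array and Wt1 on 1 of 12. Cldn11, a tight junction protein of Sertoli cells, was well above background in 4 siXist clones, 1 siCont clone and 0 IVF embryos, and was kept through the siXist class alone. Its levels were -5.69, -6.36, -2.33 and -6.38 in siXist clones and -6.52, -6.39, -5.82 and -4.70 in siCont clones. In IVF embryos they were -8.30, -7.37, -6.35 and -7.33. The lowest detectable level differed between arrays, so these counts do not rank the clone classes. Clu (clusterin) averaged -1.50, -1.48 and -2.91 in siXist clones, siCont clones and IVF embryos, while Sox9 averaged -5.38, -2.31 and 0.12. Of 8 cumulus cell markers 3 were kept, with sums of 0.0869 to 1.16, 0.187 to 0.305 and 0.113 to 0.422. Of these, Ptx3 was well above background in 0 siXist clones, all 4 siCont clones and 1 IVF embryo. The others, Foxl2 and Cyp19a1, were so on all 12 arrays. The part of other cells in the Atg10 and Atg3 values was not tested.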

How the data were processed

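Each of the 12 arrays was 1-colour (Cy3). Per the labels, each embryo's RNA went through a TRIzol extraction and repeated linear amplification before labelling, which can add spread at low levels. Per the file headers, the deposited scanner intensity came from Agilent Feature Extraction 10.5.1.1, background-subtracted and spatially detrended within the array, on a grid built on mm9. The submitters' processing notes name the same software. The authors' deposited value table is on a log2 scale. Found from the values, each of its columns is the log2 intensity shifted by 1 number per array, with every probe then centred on its median across arrays; what the shift rests on is unknown. Its column medians were 0.01, 0.54, -0.18 and -0.22 in siXist clones 1 to 4, -0.05, -0.72, -1.62 and -0.12 in siCont clones, and 0.56, -0.0069, 0.75 and 0.32 in IVF embryos.

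Here, outlier-flagged spots were dropped, replicate spots averaged, and log2 processed intensity minus the 75th percentile of the array was used. No spot was saturated (0). Probes were named through accessions without versions from a RefSeq table for GRCm38.p6 (26888 of 41174, 65.3%). Kept probes (24840; 24838 with a value in every class) were fitted with limma 3.58.1 (R 4.3.3), 1 mean for each class over all 12 arrays (9 residual degrees of freedom), two-sided, with Benjamini-Hochberg adjustment over all of them at 0.05. Lists use the brightest kept probe of a gene. Where a class was nowhere well above background, a fold is given against the lowest detectable signal of each of its arrays. Such a fold holds for this scaling only. Figures and counts used Python 3.11.15 with pandas 2.3.3 and matplotlib 3.10.9. The fit was tested on simulated data.

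The members, lists and rules were chosen with earlier results of these data known. Named are all member probes, the 3 genes with the smallest p each way per contrast over the further lists, the 3 nearest genes with a kept probe on each side of Atg10, the 5 genes most correlated with its brightest probe, and Xist. A gene that this rule named is not reported here, and counts over the lists include it. Alternatives were quantile normalisation, the same after normexp (offset 50), the values of the authors, no filter or a stricter one (at least 6 arrays), a floor under dim values, 1 probe per gene, sex as a term, the replicate number as a block, only the classes compared, male embryos only, and each array left out. Replicate numbers did not pair embryos.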

Additional observations from a re-analysis of the deposited data

Results flagged for a closer look

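Each set of 4 embryos of a class was examined for a single far value in all 16 member probes, which made 48 sets. In 3 of them the gap between the highest embryo and the next was above the 95% critical value of the Dixon test for 4 values. Chance flags about 1 set in 20.

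On Atg3 probe A_51_P143855, siXist clone 2 had -4.22, while the other siXist clones lay between -8.91 and -8.15. It was the only siXist clone well above background on this probe. On the same probe siCont clone 3 had -7.54, with the other siCont clones between -8.03 and -7.96; none of these 4 was well above background. On Atg12 probe A_52_P579719, siXist clone 1 had 3.95, with the others between 2.57 and 2.79.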

How the results depend on the processing

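The clone against IVF differences of both Atg10 probes stayed positive under every alternative run, from 2.42 to 8.31 for siXist clones and from 3.80 to 9.82 for siCont clones on A_51_P378858, and from 1.79 to 2.82 and 2.35 to 3.93 on A_52_P332666. The upper ends on A_51_P378858 are those with sex as a term or male embryos only, where the male IVF embryos are below detection. That the Atg10 differences stayed positive is a description only, since Atg10 was chosen for them. On A_52_P332666 leaving out an array could not have turned them, since all 8 clones lay above all 4 IVF embryos. The filters, the replicate block and only the classes compared leave these differences as they are. The call of Atg3 A_51_P143855 was the 1 member called in either comparison with IVF embryos, and that count became 0 for both with the stricter filter (which removed the probe), 1 probe per gene (which took the other Atg3 probe), sex as a term, the replicate block and male embryos only, and for siXist clones also in the authors' table and with only the classes compared. Without each array in turn the count was 0 to 1 for both. The adjusted p ran from 6.83e-05 to 0.186 for siXist clones and from 6.99e-05 to 0.168 for siCont clones over 21 alternatives each. Between the clone classes the count was 0 throughout. The replicate numbers did not pair embryos (correlations of deviations between -0.14 and 0.07), and the block lowered the probes called to 39 for siXist clones, 18 for siCont clones and 1 between the clone classes. Slide as a block was not run because each class lies on 1 slide.

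Probes called for siXist clones against IVF embryos (128) were 53 in the authors' table, 57 with the stricter filter, 32 with sex as a term, 71 with male embryos only and 76 to 164 without 1 array. For siCont clones against IVF embryos (101) they were 172, 31, 23, 44 and 38 to 156, and 55 with no filter. Between the clone classes (6) they were 21, 3, 5, 19 and 4 to 63, and 0 with normexp, 1 with the floor, and 15 with only the classes compared. The Xist difference ran from -3.22 to -1.91, each at an exact permutation p of 0.0286, which is the smallest possible also with 3 against 4 embryos.

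Differences that were not called turned sign as follows. The authors' table shifts whole arrays relative to the scaling used here. The mean shift was 0.39 in siXist clones, -0.74 in siCont clones and 0.35 in IVF embryos. A turn in that table thus comes from a shift shared by all probes and is not a separate result for each gene. The cause of the other turns was not tested. In the authors' table the siXist minus siCont values were 0.59 and 0.59 for Map1lc3b, 0.65, 0.75 and 0.62 for Atg12, 0.64 for Atg16l1, 1.07 for Atg13, 0.28 for Becn1, 0.66 for Atg5, 1.03 for Atg7, 0.54 for Atg3 A_52_P464003, 0.59 and 0.69 for Ulk1 and 0.17 for Ctsl. The siCont minus IVF values there were -0.89 for Map1lc3b A_51_P126177, -0.80, -1.07 and -0.90 for Atg12, -0.80 for Atg16l1, -0.66 for Becn1, -0.92 for Atg5, -0.83 for Atg3 A_52_P464003, -0.88 and -0.88 for Ulk1, -0.0438 for Bnip3, -0.49 for Atg2b, -1.04 for Rps23 and -1.06 for Tmem167. With normexp, siXist minus IVF was 0.23 for Atg12 A_51_P197378, 0.14 for Atg16l1, 0.21 and 0.18 for Ulk1, 0.17 for Rps23 and 0.19 for Tmem167, and siCont minus IVF -0.0285 for Map1lc3b A_51_P126177 and -0.0268 for Atg12 A_52_P579719. With quantile normalisation, siXist minus IVF was 0.0204 for Map1lc3b A_51_P126177, 0.21 for Atg12 A_51_P197378, 0.14 for Atg16l1, 0.0417 and 0.17 for Ulk1, 0.12 for Rps23 and 0.18 for Tmem167, and siXist minus siCont 0.12 for Atg7. With sex as a term or male embryos only, siXist minus IVF was 0.21 for Xrcc4 and siCont minus IVF -0.0629 for Atg12 A_52_P579719 and 0.24 for Zcchc9. Leaving out 1 array gave siXist minus IVF ranges of -0.53 to 0.0795 for Atg16l1, -0.59 to 0.12 for Map1lc3b A_51_P126177 and -0.45 to 0.29 for Xrcc4. For siCont minus IVF it gave -0.19 to 0.47 and -0.0134 to 0.63 for Atg12 A_52_P579719 and A_52_P579726, -0.20 to 0.44 and -0.52 to 0.0537 for Map1lc3b A_51_P126177 and A_52_P563475, -0.20 to 0.23 for Rps23, -0.0739 to 0.28 for Tmem167, -0.0213 to 0.47 and -0.0548 to 0.44 for Ulk1 A_52_P630877 and A_52_P630883 and -0.42 to 0.20 for Zcchc9. For siXist minus siCont it gave -0.24 to 0.17 for Atg13, -0.73 to 0.84 for Atg3 A_51_P143855 and -0.39 to 0.26 for Atg7. Of 1853 alternative values for single genes, 1751 counted as unchanged. For tested probes this meant the same direction and side of the threshold. For Atg10 it meant a change smaller than the SD within classes, so the turn of A_52_P332666 in the authors' table counted as unchanged. For correlations with Atg10 it meant a value inside the 95% interval of the main one. Several alternatives leave a fitted difference as it is. These are the filters, 1 probe per gene, the replicate block, only the classes compared, and leaving out an array of a class not compared. Part of the count of unchanged values was therefore fixed in advance. Signal near background limits A_51_P143855, Tfeb, Acot12 and, in the male IVF embryos, Atg10 A_51_P378858.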
